A study of Mus musculus with 6 samples.

Results

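The enzymes that write, copy and remove cytosine methylation were followed at the RNA level in regulatory T (Treg) cells made in culture with or without sorafenib (Sora), a multikinase inhibitor used against hepatocellular carcinoma. The 9 genes Dnmt1, Dnmt3a, Dnmt3b, Uhrf1, Tet1, Tet2, Tet3, Mbd1 and Mbd2 were picked by symbol, out of 22939 genes in the deposited count and FPKM tables, by a rule that uses no measured value. Earlier results of these data were known when the genes were chosen. RNA-seq libraries came from 2 groups of 3, labelled control (ctrl-Treg) and sora (Sora-Treg). Both groups started as naive CD4+ T cells of spleen and lymph nodes of Foxp3GFP mice, a C57BL/6J line with GFP inserted into the endogenous Foxp3 gene. Cells of both groups were stimulated with plate-bound anti-CD3 and anti-CD28, cultured with TGF-β1, anti-IFN-γ and anti-IL4, and sorted for GFP, and Sora was the sole difference named. The age of the mice and the Sora concentration behind these libraries are not given in the sources used here. The sort keeps cells in which the reporter is on, so cells that did not become GFP+ were not measured, and the culture stands for induced Treg cells rather than for those of a tumour. Nothing states whether the 3 libraries of a group came from separate animals or cultures, so p-values measure the spread between these libraries, which may be technical. No DNA methylation was measured.

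As background, a methyl group on the cytosine of a CpG is copied to the new DNA strand after replication by DNMT1, which UHRF1 brings to half-methylated sites. DNMT3A and DNMT3B place methyl groups on sites that had none. The dioxygenases TET1, TET2 and TET3 oxidize 5-methylcytosine to 5-hydroxymethylcytosine and further, after which the mark is lost at replication or by base excision repair, and MBD1 and MBD2 bind methylated CpGs and recruit repressors. In Treg cells, stable Foxp3 expression depends on a demethylated enhancer in that gene, which TET2 and TET3 help to keep free of methylation.

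Library totals ran from 30727686 to 37717324 counts, so that 3 counts, the upper limit a count of 0 allows, corresponded to 0.0795 to 0.0976 CPM (counts per 1000000 counts of the library). The levels given below are CPM with library totals adjusted by TMM factors. Such limits cover counting error only. The edgeR fit put the variation between replicates at 4.29% (biological coefficient of variation). All 5 T cell markers tested were higher in Sora-Treg cells (3 with libraries scaled by their totals), among them Cd3g by 1.26 on the log2 scale. Over all tested genes, 29.7% were higher. Marker lists of other cells differed in level, with erythroid genes at a maximum of 4 counts in any library. CD8 and NK cell markers summed to 15.4 to 17.3 CPM in ctrl-Treg and 16.7 to 18.3 CPM in Sora-Treg cells. Of these, Cd8a was lower (-0.71 on the log2 scale), Eomes higher (1.03), and Cd8b1 did not pass. The 7 myeloid markers had sums of 94.7, 94.8 and 25.2 CPM in ctrl-Treg libraries, against 23.0, 43.5 and 21.0 CPM with Sora, and none of them was at 0 in all libraries. Ctrl-Treg libraries 1 and 2 therefore stood apart, and each member was also fitted without both of them. The 5 B cell markers summed to 9.71 to 10.7 CPM in ctrl-Treg and 6.09 to 7.68 CPM in Sora-Treg cells. In bulk RNA, fewer cells of a type and less RNA per cell cannot be told apart.

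Across the whole table, 3994 of 13463 tested genes (29.7%) were higher and 4028 (29.9%) lower in Sora-Treg cells at an edgeR adjusted p under 0.05, and 1517 (11.3%) also changed more than 2-fold. With libraries scaled by their totals alone the split became 2862 higher and 5614 lower, and the median log2 fold change over all genes moved from -0.0035 to -0.1189. Against this background, 6 of the 9 methylation genes fell, 2 rose and Dnmt3b did not pass. None changed more than 2-fold. Their median log2 fold change was -0.28. The groups did not overlap for 8 of the 9, where 63.7% of tested genes did not overlap, so such separation was common in these libraries.

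**Figure D1:**
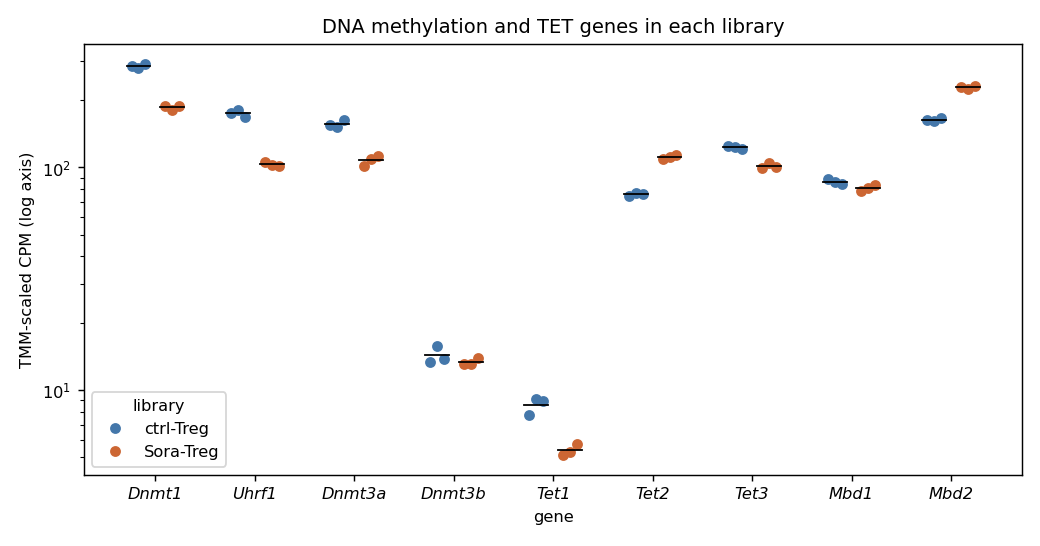
TMM-scaled CPM (log axis) of each of the 9 genes in every library (points, blue for ctrl-Treg and orange for Sora-Treg), with a line at the group mean (n = 3). Tet2 and Mbd2 lie higher in all Sora-Treg libraries, Dnmt3b overlaps between the groups, and the remaining 6 lie lower.

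Both components of maintenance methylation fell. Dnmt1 (chromosome 9, 20907206 to 20959888, GRCm38.p6) was at 287, 280 and 293 CPM in ctrl-Treg cells and at 190, 181 and 188 CPM in Sora-Treg cells. Every Sora-Treg library was thus well under every ctrl-Treg library. The mean fell from 286 ± 6.44 to 186 ± 4.81 CPM (SD, n = 3), which is -0.62 ± 0.03 on the log2 scale (SE, 95% CI -0.69 to -0.56, edgeR adjusted p = 4.30e-14). Uhrf1 (chromosome 17, 56303337 to 56323486), which encodes the protein that reads half-methylated CpGs and brings DNMT1 there, was at 175, 182 and 169 CPM against 106, 102 and 102 CPM. This was the most negative value of the 9 genes, within the interval of Tet1, from 175 ± 6.52 to 103 ± 2.43 CPM (log2 fold change -0.76 ± 0.04, SE, 95% CI -0.84 to -0.69, edgeR adjusted p = 1.65e-14). Of all tested genes, 17.5% had a larger absolute change than Uhrf1 and 23.1% a larger one than Dnmt1. Since both genes fell, their ratio by FPKM moved little, from 0.963 ± 0.0575 to 1.06 ± 0.0254 Dnmt1 per Uhrf1 (exact two-sided permutation p = 0.1, the smallest that 3 against 3 libraries allow).

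The de novo enzymes did not move alike. Dnmt3a (chromosome 12, 3801559 to 3914443), the main de novo methyltransferase of mature T cells, was at 154, 152 and 163 CPM in ctrl-Treg and 102, 109 and 112 CPM in Sora-Treg cells. The groups were far apart compared with their spread, and the log2 fold change was -0.54 ± 0.04 (SE, 95% CI -0.62 to -0.46, edgeR adjusted p = 4.21e-11). Dnmt3b (chromosome 2, 153649411 to 153687730), its close relative, was lower in level, at 13.4, 15.7 and 13.8 CPM against 13.1, 13.1 and 14.0 CPM. Its groups overlapped. The log2 fold change of Dnmt3b was -0.10 ± 0.09 (SE, 95% CI -0.27 to 0.08, edgeR adjusted p = 0.356), an interval that leaves room for a small change in either direction. It was -0.02 without ctrl-Treg library 2 (edgeR adjusted p = 0.883). With library totals alone as the scale it was -0.21 (edgeR adjusted p = 0.0370). Dnmt3l, the catalytically inactive relative that stimulates both enzymes, did not pass the filter on low counts.

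The TET genes split. Tet2 (chromosome 3, 133463677 to 133545136), the TET gene most often mutated in T cell lymphoma, was at 74.4, 76.9 and 76.0 CPM in ctrl-Treg and at 109, 112 and 114 CPM in Sora-Treg cells. All 3 Sora-Treg libraries were higher, with means of 75.8 ± 1.30 and 111 ± 2.59 CPM (log2 fold change 0.56 ± 0.04, SE, 95% CI 0.48 to 0.63, edgeR adjusted p = 9.57e-12). Tet3 (chromosome 6, 83362373 to 83457208), which acts together with Tet2 in Treg cells, was at 125, 123 and 122 CPM against 99.0, 105 and 101 CPM. That was a smaller difference in the other direction, of -0.28 ± 0.04 on the log2 scale (SE, 95% CI -0.35 to -0.20, edgeR adjusted p = 5.20e-07), and 49.9% of tested genes had a larger absolute change. Tet1 (chromosome 10, 62804570 to 62887469), best known from embryonic stem cells, was scarce. Its counts were 305, 331 and 287 in ctrl-Treg and 155, 169 and 205 in Sora-Treg libraries, or 7.75, 9.09 and 8.99 against 5.11, 5.30 and 5.76 CPM. These groups did not overlap either, and the log2 fold change of Tet1 was -0.67 ± 0.12 (SE, 95% CI -0.91 to -0.43, edgeR adjusted p = 3.46e-05), with the largest error of the 9 genes.

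The methyl-CpG binding genes also differed from each other. Mbd2, whose product recruits the NuRD repressor complex to methylated DNA, was at 164, 161 and 168 CPM in ctrl-Treg and 231, 224 and 232 CPM in Sora-Treg cells. The 3 Sora-Treg libraries were all higher, by 0.48 ± 0.03 on the log2 scale (SE, 95% CI 0.42 to 0.54, edgeR adjusted p = 5.09e-12). Mbd1, another transcriptional repressor, was at 88.9, 86.0 and 84.0 CPM against 78.6, 80.5 and 83.2 CPM. The nearest libraries of the 2 groups were less than 1 CPM apart. Its log2 fold change of -0.10 ± 0.04 (SE, 95% CI -0.18 to -0.01, edgeR adjusted p = 0.0413) lost its call when ctrl-Treg library 1 (-0.07, edgeR adjusted p = 0.199), ctrl-Treg library 2 (-0.10, adjusted p = 0.0834), Sora-Treg library 1 (-0.07, adjusted p = 0.146) or Sora-Treg library 2 (-0.09, adjusted p = 0.0711) was left out, and with DESeq2 (-0.09, adjusted p = 0.0881).

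**Figure D2:**
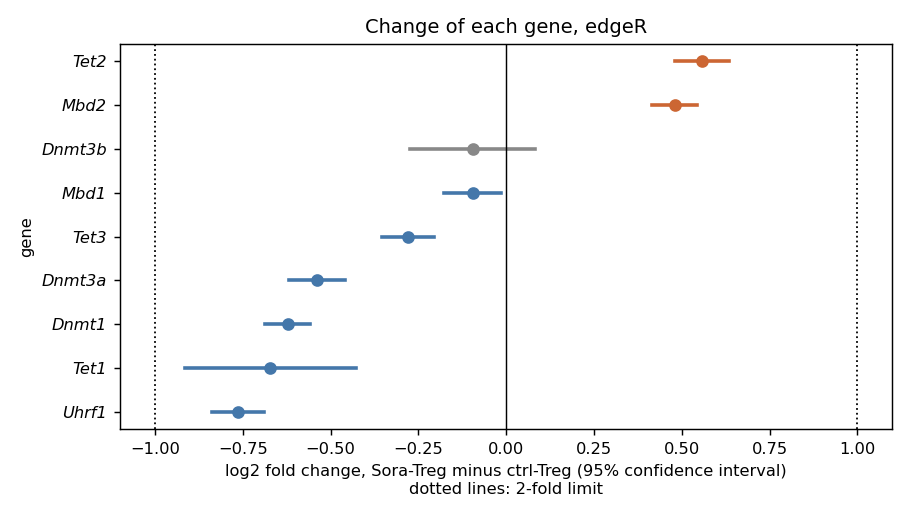
Log2 fold change (Sora-Treg over ctrl-Treg) of the 9 genes (points) with the 95% confidence interval of the edgeR fit (bars, n = 3 libraries a group), blue where lower, orange where higher and grey where the test was not passed, with dotted lines at the 2-fold limit. Uhrf1 has the most negative value (-0.76) and Tet2 the most positive (0.56), and the interval of Dnmt3b crosses 0.

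With ctrl-Treg libraries 1 and 2, those with the higher myeloid sums, both left out, the log2 fold changes were -0.65 for Dnmt1, -0.71 for Uhrf1, -0.60 for Dnmt3a, -0.73 for Tet1 (then below Uhrf1), -0.26 for Tet3, 0.55 for Tet2 and 0.45 for Mbd2, and all 7 kept their call. That fit has a lone ctrl-Treg library, which is assumed to vary like the Sora-Treg libraries. Mbd1 was then at -0.05 (edgeR adjusted p = 0.513) and Dnmt3b at -0.04 (edgeR adjusted p = 0.822).

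Promoter sequence is shown for the genes with the most negative and the most positive change. Each window holds the 250 bases before an annotated start in RefSeq (GRCm38.p6), both printed windows have no annotated exon base of their gene, and capitals mark a match to the E2F-type motif TTTNNCGC, searched on both strands. Uhrf1 (chr17:56304063-56304312, plus strand) and Tet2 (chr3:133544391-133544640, minus strand) read 5′ to 3′ as follows.
Uhrf1: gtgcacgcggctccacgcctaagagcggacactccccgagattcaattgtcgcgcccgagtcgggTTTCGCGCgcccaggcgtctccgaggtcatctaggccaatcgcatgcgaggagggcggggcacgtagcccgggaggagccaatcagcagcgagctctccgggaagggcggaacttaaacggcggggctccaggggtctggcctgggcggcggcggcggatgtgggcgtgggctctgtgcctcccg
Tet2: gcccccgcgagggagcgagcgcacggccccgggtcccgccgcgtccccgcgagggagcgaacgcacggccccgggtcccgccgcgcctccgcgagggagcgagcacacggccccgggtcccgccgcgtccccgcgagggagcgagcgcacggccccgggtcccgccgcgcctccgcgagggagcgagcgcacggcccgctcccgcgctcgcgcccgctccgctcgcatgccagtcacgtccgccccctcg
The printed Uhrf1 window lies before 1 of its 2 annotated starts and had 30 CpGs, and 94.1% of 32851 such windows in the genome had fewer. It held the letters of the E2F-type motif 185 bases before the start and CCAAT at 2 places. The other Uhrf1 window (56303087 to 56303336 on chromosome 17), with 16 exon bases and hence not printed, had 10 CpGs, and 62.2% of windows had fewer. Its E2F-type match was 56 bases before the start. The Tet2 window had 51 CpGs, more than 99.9% of windows, and neither of these motifs. It lies inside the gene, whose position on the minus strand begins at 133545136, so the bases before that outer end were not searched. For comparison, the median over all windows was 6 CpGs. Dnmt1 had several annotated starts, and the window at 20952624 to 20952873 on chromosome 9 had 166 exon bases and held 2 overlapping E2F-type matches, 219 and 217 bases before its start.

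Windows were found for 7 of the 9 genes, 12 in all. The E2F-type letters were in 3 of them, all of Uhrf1 or Dnmt1, and in 4.28% of all windows. CCAAT was in 5 of the 12, of Tet3, Dnmt1 and Uhrf1, and in 33.8% of all. Windows of the same gene are not independent, and some of those of Dnmt3a overlap. The shares over all windows were not matched for CpG content, and the E2F-type motif contains a CpG. The E-box CACGTG was in 1, that of Dnmt3a, and in 6.02% of all, and the FOXO motif GTAAACA was in 0 of the 12 and in 3.17% of all windows. These are matches of letters and not measured binding sites.

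To set the genes beside each other, levels were taken per length as FPKM, for which each gene's length is the one implied by the tables. In ctrl-Treg cells Mbd2 led at 70.7 ± 1.51 FPKM, followed by Uhrf1 (49.0 ± 1.79) and Dnmt1 (47.1 ± 1.11), whose libraries overlapped. Mbd1 (13.2 ± 0.412), Tet3 (10.6 ± 0.175), Tet2 (8.09 ± 0.114) and Dnmt3a (6.63 ± 0.247) came next, with Dnmt3b (2.58 ± 0.218) and Tet1 (0.487 ± 0.0409 FPKM) last. In Sora-Treg cells Mbd2 was again first, at 91.0 ± 1.82 FPKM. Dnmt1 (28.3 ± 0.771) and Uhrf1 (26.7 ± 0.672) again overlapped. Tet2 (11.0 ± 0.240 FPKM) now stood above Tet3 (8.04 ± 0.240 FPKM) and overlapped with Mbd1 (11.4 ± 0.316 FPKM), while Dnmt3a (4.21 ± 0.197), Dnmt3b (2.22 ± 0.0845) and Tet1 (0.281 ± 0.0172) kept the last places. The place of Dnmt3a hangs on its length. The tables imply 24.591 kb, whereas its longest coding transcript in GENCODE M21 has 9.685 kb, and with the longest coding transcripts as lengths Dnmt3a was at 16.8 in ctrl-Treg cells, above Tet3 (11.8) and Tet2 (8.59, in FPKM recomputed with those lengths).

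Shares within a family do not depend on how libraries are scaled. Of the summed FPKM of the TET genes, Tet2 made up 41.6%, 42.6% and 42.6% in ctrl-Treg and 57.0%, 56.2% and 57.6% in Sora-Treg cells. Tet3 went the other way, from 56.1%, 54.7% and 54.7% to 41.6%, 42.4% and 40.9%. The order of the pair was therefore opposite in the groups, in 3 of 3 libraries each. Tet2 gained 14.6 percentage points and Tet3 fell by 13.6 percentage points, each with an exact two-sided permutation p of 0.1 (0.12 after Benjamini-Hochberg adjustment over the 6 shares compared), so the design could not reach 0.05 here. The ratio of Tet2 to Tet3 rose from 0.766 ± 0.0218 without Sora to 1.37 ± 0.0425 with it (SD, n = 3). Tet1 held 2.54% ± 0.216 and 1.46% ± 0.0743 of the sum.

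Among the methyltransferases the shares moved far less. Of the summed FPKM of the DNMT genes, Dnmt1 made up 83.6% ± 0.414 without Sora and 81.4% ± 0.813 with it. These levels rest on the long Dnmt3a length, and Dnmt1 was at 71.4% and 69.0% with GENCODE lengths and at 62.6% and 60.6% of the counts undivided by length. Dnmt3b rose in share from 4.58% ± 0.468 to 6.41% ± 0.190 while its own level did not pass the test. The share of Dnmt3a was 11.8% ± 0.208 and 12.1% ± 0.647, a difference of 0.367 percentage points (exact two-sided permutation p = 0.4). With GENCODE lengths Dnmt3a held 23.7% and 24.2%, and of the counts 34.3% and 35.1%, a difference of 0.820 percentage points (exact two-sided permutation p = 0.4). For FPKM shares the exact permutation p was 0.1 for Dnmt1 and for Dnmt3b. Across the families, Tet2 per Dnmt1 went from 0.172 ± 0.00573 to 0.389 ± 0.0153, and Mbd2 per Mbd1 from 5.34 ± 0.226 to 7.96 ± 0.246 (exact two-sided permutation p = 0.1 for each).

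**Figure D3:**
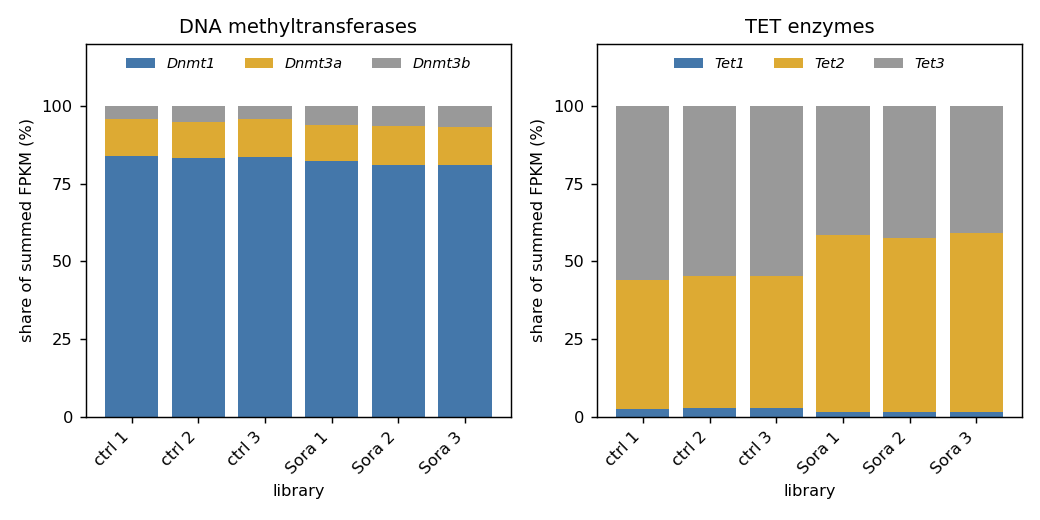
Stacked bars of the share of each gene (percent) in the summed FPKM of the DNMT genes (left) and of the TET genes (right), with 1 bar for each library. Tet2 lies at 41.6% to 42.6% in ctrl-Treg and 56.2% to 57.6% in Sora-Treg libraries, and Dnmt1 at 81.0% to 84.0% over the 6 libraries with the lengths that the FPKM values imply.

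Genes that work with these enzymes were then counted in lists written from general knowledge, with earlier results of these data known. Over all tested genes, 29.7% were higher and 29.9% lower. Of 7 maintenance partners tested, 5 fell and Uhrf2, a paralog of Uhrf1, was higher by 0.10, with a list median of -0.63 against -0.0035 over all genes. Cdca7, the zinc finger protein that recruits the remodeler HELLS, was at 78.2, 75.4 and 77.7 CPM in ctrl-Treg and 28.2, 30.2 and 30.5 CPM in Sora-Treg cells. It was the one partner past 2-fold (log2 fold change -1.38 ± 0.05, SE, edgeR adjusted p = 3.83e-17). Hells itself (-0.90), Pclaf (-0.94), a PCNA clamp factor, and Lig1 (-0.63), the ligase of Okazaki fragments, fell as well. Pcna was the fifth. The call of Uhrf2 was lost without ctrl-Treg library 2 or Sora-Treg library 3, and its value was -0.02 with library totals alone.

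Of the de novo partners, 3 were tested. Nsd2, which writes the H3K36 dimethylation that DNMT3A binds, was at 169, 173 and 171 CPM in ctrl-Treg and 120, 121 and 117 CPM in Sora-Treg cells (log2 fold change -0.52 ± 0.03, SE, edgeR adjusted p = 3.14e-12). Nsd1 (-0.08) and Setd2 (0.10, and -0.01 with library totals alone) passed the test with small changes, and their calls were lost without any of 4 and of 3 libraries (ctrl-Treg 1 to 3 and Sora-Treg 1 for Nsd1, ctrl-Treg 1 and Sora-Treg 2 and 3 for Setd2), with an edgeR adjusted p of up to 0.275 and 0.228. Among 8 other genes of methyl-CpG reader families, 5 rose (against 29.7% of all tested genes) and 1 fell (against 29.9%), with a median of 0.20. Family membership, as for Mbd3, Mbd5 and Mbd6, does not mean that a product binds methylated CpGs. Of the 5 that rose, Mbd5 (0.16) lost its call without ctrl-Treg library 1 or 2 or Sora-Treg library 2 (edgeR adjusted p up to 0.125). With library totals alone Mbd5 was at 0.04. Zbtb38, a zinc finger reader, rose by 0.69 ± 0.04, Zbtb4 by 0.48 and Mbd6 by 0.24, and Mbd4, which is also a DNA glycosylase, was the one that fell, at -0.51.

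Of 7 partners of the TET enzymes tested, 3 rose and 2 fell, where 29.7% of all tested genes rose and 29.9% fell. Their median of -0.08 became 0.04 without ctrl-Treg library 2. Ogt, the O-GlcNAc transferase that binds TET proteins, was at 590, 597 and 609 CPM in ctrl-Treg and 830, 878 and 844 CPM in Sora-Treg cells (log2 fold change 0.51 ± 0.03, SE, edgeR adjusted p = 1.09e-13). Idh2, a mitochondrial source of the TET cofactor 2-oxoglutarate, was at 38.9, 43.6 and 44.8 against 27.9, 24.5 and 25.6 CPM (log2 fold change -0.71 ± 0.06, SE, edgeR adjusted p = 1.80e-09). Idh1, its relative in the same list, went the other way, at 0.30 (edgeR adjusted p = 0.0251). That call was lost without ctrl-Treg library 2 or 3 or Sora-Treg library 1 or 2 (edgeR adjusted p up to 0.116). D2hgdh, which clears D-2-hydroxyglutarate, an inhibitor of TET enzymes, was at 0.22 (edgeR adjusted p = 0.0574 without ctrl-Treg library 3). Of 13 base excision and Gadd45 genes tested, 10 fell (against 29.9% of all tested genes) and 1, Neil2, rose, with a median of -0.38. Ung (-0.88), Neil3 (-0.86), Gadd45b (-0.78) and Parp1 (-0.37) were among those that fell, and Tdg, the glycosylase that removes oxidized methylcytosine, fell by 0.29 (-0.19 without ctrl-Treg libraries 1 and 2, edgeR adjusted p = 0.0832).

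RNA of most methyl donor genes was lower too, while the methyl donor itself was not measured. Of 14 genes of the methyl donor cycle, 11 fell (against 29.9% of all tested genes) and 1, Mat2b, rose (against 29.7%), with a median of -0.36. Shmt1, which charges folate with a carbon unit from serine, was at 42.5, 43.6 and 44.9 CPM in ctrl-Treg and 18.2, 18.3 and 16.9 CPM in Sora-Treg cells (log2 fold change -1.30 ± 0.06, SE, edgeR adjusted p = 1.23e-14). Mthfd1 (-0.99), Mthfd2 (-0.84) and Shmt2 (-0.72), further folate enzymes, fell, as did Mat2a (-0.32), which makes S-adenosylmethionine.

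**Figure D4:**
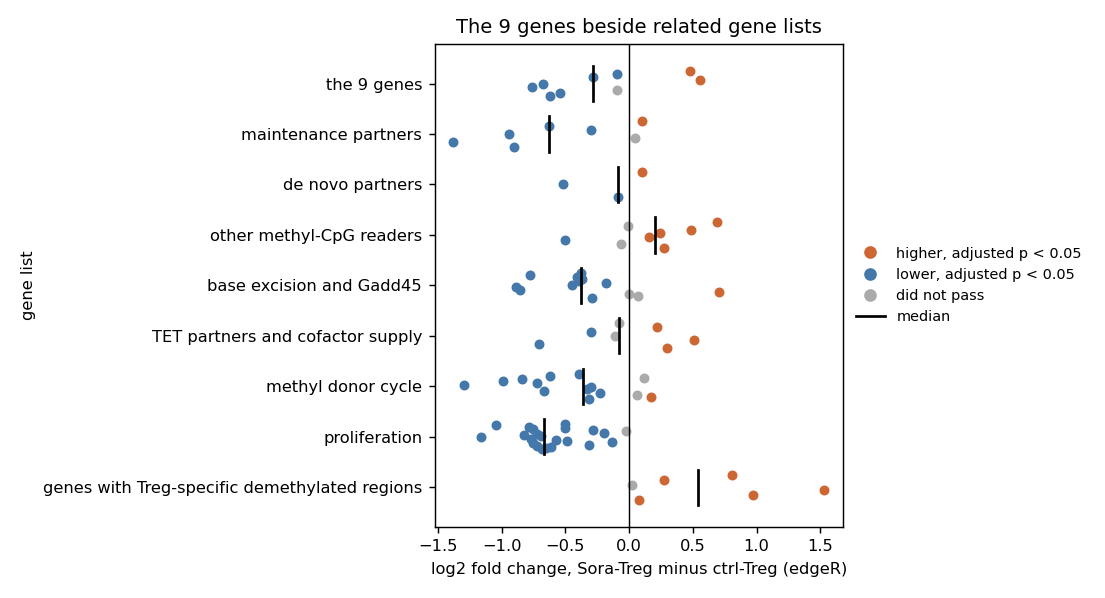
Log2 fold change (Sora-Treg over ctrl-Treg) of every tested gene in each list (points, orange where higher, blue where lower and grey where the test was not passed), with a line at the median of the list. The 9 methylation genes have a median of -0.28, the maintenance partners of -0.63 and the proliferation genes of -0.67.

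Dnmt1 and Uhrf1 are transcribed mostly in S phase, so genes of DNA replication and the cell cycle were set beside them. Of 22 such genes, 21 fell (against 29.9% of all tested genes) and 0 rose (against 29.7%), with a median of -0.67. Cdc45 (-1.04), Tyms (-1.16), Mcm3 (-0.72) and Top2a (-0.65) were examples. The list summed to 2834 to 2916 CPM in ctrl-Treg and 1897 to 1943 CPM in Sora-Treg libraries. A more negative log2 fold change than that of Uhrf1 was seen in 5 of the 22 genes, than that of Tet1 in 11, of Dnmt1 in 12, of Dnmt3a in 14 and of Tet3 in 19. The part of the lower proliferation genes in the lower Dnmt1 and Uhrf1 was not tested.

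Genes listed for regions known to be demethylated in Treg cells were read as RNA as well. Whether these regions lost methylation in the cultured cells was not measured. Of 6 such genes, 5 were higher (against 29.7% of all tested genes) and 0 lower (against 29.9%) in Sora-Treg cells, with a median of 0.54. Ctla4 (1.53 ± 0.03), Il2ra (0.97 ± 0.02) and Tnfrsf18 (0.81 ± 0.03), surface proteins of Treg cells, and Ikzf4 (0.28 ± 0.03, log2 scale, SE) rose. Foxp3, on whose reporter all cells were sorted, was at 252 to 269 CPM in ctrl-Treg and 268 to 278 CPM in Sora-Treg cells, a difference of 0.07 (edgeR adjusted p = 0.0405) that turned to -0.04 with library totals alone and lost its call without ctrl-Treg library 2 or 3 or Sora-Treg library 1 or 3 (edgeR adjusted p up to 0.176). Ikzf2 did not pass.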

How the data were processed

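For each of the 6 libraries, the authors deposited raw counts and FPKM values under gene symbols. The FPKM values are the counts over a fixed length for each gene and the library's total (largest relative difference 1.09e-06), and hence no separate measurement. The study's methods name BGISEQ-500 sequencing, GRCm38 and Bowtie2, whereas the submitters' processing notes name GRCm39, fastp, HISAT2, HTSeq, R 3.2.0 and DESeq2. The annotation release and strand handling are not given in the sources used here, so reads of overlapping antisense genes (of Dnmt3a, Dnmt3b, Tet2 and Tet3) cannot be told apart. Dnmt3aos, the one with a row, had at most 5 counts.

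Counts were tested with the quasi-likelihood test of edgeR 4.0.16 (R 4.3.3) with TMM scaling, filterByExpr (13463 genes), no covariate and Benjamini-Hochberg adjustment over all tested genes. A gene passed, and was called higher or lower, at an adjusted p under 0.05, and "over 2-fold" also needed a log2 fold change beyond 1. Levels are TMM-scaled CPM, mean ± SD. Within-group library pairs differed by more than counting noise (chi-square per degree of freedom 3.48 to 6.23), so all 6 were counted. Shares and ratios of FPKM were compared with exact permutation tests (scipy 1.17.1). Groups came from the sample titles, and the labels give no batch.

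Members and lists were chosen with earlier results of these data known. Named are the 9 members, up to 4 genes per list (over 2-fold first, then by adjusted p), and for the most positive and most negative member the 3 genes of most similar profile. Pcna, Uhrf2, Mbd4, Mbd5, Idh1, Tdg, Neil2, Mat2a, Mat2b, Foxp3, Ikzf2 and Dnmt3l were named beyond this after their values were seen. A few listed genes are not reported here. Alternatives were RLE, upper quartile and library-total scaling, 2 other filters, DESeq2 1.42.0, robust fitting, a replicate block, each library left out, and limma 3.58.1 on log2(FPKM + 1) with and without a filter (mean FPKM of at least 0.5) and on log2(FPKM + 0.1). The fit without ctrl-Treg libraries 1 and 2, and GENCODE transcript lengths for shares, were added after seeing the data. The main edgeR fit, DESeq2 and limma on filtered log2(FPKM + 1) were run on simulated data, and the other alternatives were not. Gene positions and promoters are from RefSeq GRCm38.p6, which gave windows for 7 members.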

Additional observations from a re-analysis of the deposited data

How the results depend on the processing

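Over 18 alternatives (16 for Tet1, which the FPKM filter dropped), Dnmt1 (-0.74 to -0.60), Dnmt3a (-0.65 to -0.50), Uhrf1 (-0.88 to -0.71), Tet1 (-0.79 to -0.21), Tet2 (0.40 to 0.58), Tet3 (-0.39 to -0.26) and Mbd2 (0.36 to 0.50) kept their direction and call on the log2 scale. Mbd1 lost its call in 6 of 18, with -0.116 to -0.0703 over the fits without 1 library. Dnmt3b gained a call with library totals alone (-0.211) and ran from -0.139 (without ctrl-Treg library 1) to -0.0189 (without ctrl-Treg library 2). None reversed. Fold changes on log2(FPKM + 1) understate those of scarce genes such as Tet1. The replicate numbers did not pair the libraries (correlations of same-numbered deviations -0.0438, 0.0591 and 0.0299), and with the replicate block 2 members were higher and 6 lower, as without it, and 4057 genes higher and 4064 lower.

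By limma on log2(FPKM + 1), log2(FPKM + 0.1) and log2(FPKM + 1) without a filter, 2456, 2453 and 2577 genes were higher, and over 2-fold 275, 421 and 274 were higher and 189, 423 and 185 lower. Leaving out 1 library gave 3712 to 3969 genes higher and 3653 to 3992 lower.

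Among lists, counts that moved by over 1.5 times were as follows, with the cause not tested. Higher maintenance partners became 0 with upper quartile or library-total scaling, with the filter of 1 count in any library, without ctrl-Treg libraries 1 and 2, and with FPKM (0 to 1 without 1 library). Higher de novo partners became 0 with those scalings, without ctrl-Treg libraries 1 and 2, and with FPKM (0 to 1 without 1 library), and lower ones 1 with DESeq2 and without ctrl-Treg libraries 1 and 2 (1 to 2 without 1 library). Lower genes of the reader families became 2 with both scalings and FPKM. Higher base excision genes became 0 with unfiltered FPKM. Higher TET partners became 1 with library totals and FPKM (1 to 3 without 1 library), and higher methyl donor genes 0 with both. Lower germline genes became 1 with the filter of 1 count and with unfiltered FPKM. Higher imprinted genes became 1 with both scalings and without ctrl-Treg libraries 1 and 2, and 0 with filtered FPKM (1 to 3 without 1 library). Lower Treg-region genes became 1 with library totals (Ikzf2). Higher T cell markers became 3 with library totals, without ctrl-Treg libraries 1 and 2, and with FPKM. Lower myeloid markers became 1 with DESeq2, robust fitting and log2(FPKM + 0.1), 2 with log2(FPKM + 1), and 0 with unfiltered FPKM and without ctrl-Treg libraries 1 and 2, where 1 was higher. Lower B cell markers became 1 with the filter of 1 CPM and without ctrl-Treg libraries 1 and 2, and 2 with filtered FPKM (2 to 4 without 1 library). Lower CD8 and NK cell markers became 0 without ctrl-Treg libraries 1 and 2. As shares of counts not divided by length, Dnmt3a gained 0.820, Dnmt3b 1.22, and Tet1 was at -1.68 percentage points, and Tet1 was at -1.25 with GENCODE lengths.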

Other observations

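Genes that DNA methylation is known to keep silent were mostly near the detection limit in both groups. Of 14 germline genes, 3 passed the filter on low counts, and 1 of these rose and 0 fell. Piwil2, a germline Argonaute protein, had 257, 190 and 183 counts in ctrl-Treg and 472, 546 and 548 counts in Sora-Treg libraries, or 5.83 ± 0.659 and 16.0 ± 0.958 CPM (SD, n = 3). All Sora-Treg libraries were higher, and the log2 change with its SE was 1.46 ± 0.10 (edgeR adjusted p = 2.26e-11). Of 12 imprinted genes tested, 3 were higher and 2 lower, with a median of 0.12, where 29.7% of all tested genes were higher and 29.9% lower. Grb10, an adaptor of receptor tyrosine kinases, had 185, 162 and 149 counts against 37, 21 and 29 counts (log2 change with its SE -2.36 ± 0.22, edgeR adjusted p = 4.49e-09). Peg10, a gene derived from a retrotransposon, had 3, 4 and 3 counts against 30, 31 and 17 counts (edgeR adjusted p = 3.28e-05). Impact fell by 0.23, and Igf2r was higher by 0.09, which became -0.03 with library totals alone and lost its call without Sora-Treg library 3 (edgeR adjusted p = 0.0715). Alleles were not separated in these counts.

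The genes whose profile over the 6 libraries was most like that of Tet2, by the root mean square difference of mean-centred log2 CPM among 9104 candidates, were Sh3kbp1 (0.0142), Grap2 (0.0180) and Dnajc21 (0.0188). For Uhrf1 they were Mcm5 (0.0185), Pck2 (0.0261) and Ehd1 (0.0362). These are descriptions over 6 libraries in 2 groups, with no test.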
